A study of Homo sapiens with 12 samples.

Results

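The comparison described here is that of a miR-16 sponge with a control sponge in cells labelled RPMI8226, measured on 6 of the 12 Affymetrix expression arrays of the study. The arrays were chosen by their titles: 3 are RPMI with the treatment control and 3 are RPMI with the abbreviation miR16 KO, which other labels call a knock down and in part an siRNA. The cells had been stably transduced with lentiviruses carrying GFP and either sponges that bind miR-16 or mock sponges. They were then sorted by flow cytometry, expanded, grown in parallel flasks to confluence and lysed at one time. GFP and a lentivirus are thus common to both groups. The labels name no promoter for the sponge. They also do not say how many transductions or flasks stand behind the 3 arrays of a group, so the p-values measure only the spread between these arrays. The other 6 arrays hold the same design in a second line, MMS1, and serve here for comparison and to estimate the spread. The stated aim was to model, in multiple myeloma, a cancer of plasma cells, what happens when miR-16 goes missing with 13q, and to look for its possible targets.

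MicroRNAs are short RNAs that guide Argonaute proteins to messenger RNAs, mostly through bases 2 to 8 of the microRNA, the seed, and lower the stability or translation of those messages. MiR-15a and miR-16 lie together on chromosome 13 in the DLEU2 gene, in a region often deleted in chronic lymphocytic leukemia and myeloma, and a second copy of miR-16 lies with miR-15b in the SMC4 gene on chromosome 3. A sponge transcript carries many binding sites and competes for the microRNA, so direct targets are the genes expected to gain signal. Since pairing is led by the seed, the members of the family that share it are shown here with the seed in capitals, 5′ to 3′, from RefSeq on GRCh38.p14:
hsa-miR-16-5p: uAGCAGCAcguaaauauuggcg
hsa-miR-15a-5p: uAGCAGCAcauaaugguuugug
hsa-miR-15b-5p: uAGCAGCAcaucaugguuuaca
hsa-miR-195-5p: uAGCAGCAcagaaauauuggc
hsa-miR-424-5p: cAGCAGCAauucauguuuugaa
hsa-miR-497-5p: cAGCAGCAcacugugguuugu
hsa-miR-6838-5p: aAGCAGCAguggcaagacuccu
MiR-16 is encoded at chr13:50049027-50049048 on the minus strand and at chr3:160404754-160404775 on the plus strand. Beyond the seed, from base 9 on, miR-195 shares 11 of 13 compared bases with miR-16, miR-15a shares 8 of 14 and miR-15b 6 of 14. The sequence of the sponge itself was not used here, and the arrays do not measure mature microRNAs, so how far miR-16 was withdrawn is not known from these data.

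Values are log2 signals with a lower bound of 4, and a difference of 1 between them is a doubling. The medians of the RPMI8226 arrays lay between 5.84 and 5.90, and with 3 arrays in a group precision is limited; over all genes a change had a median SE of 0.14. The mean signal of the 28S ribosomal RNA control probes was 8.84 to 8.95 on the control arrays and 9.38 to 9.53 on the sponge arrays, and did not overlap. The 18S probes gave 9.56 to 10.83 and 10.50 to 10.95. The difference between the 3′ and 5′ probes of GAPDH, a sign of RNA quality, was 0.02 to 0.10 and 0.04 to 0.17. MMS1 sponge replicate 1 stood apart (18S signal 7.84). It enters the RPMI8226 results through the estimate of the spread alone, and the MMS1 effects and the differences between lines through the MMS1 sponge mean as well. Plasma cell markers were mixed. TNFRSF17, JCHAIN and CD38 were low, with means of 4.48 ± 0.27, 4.07 ± 0.10 and 4.79 ± 0.38 (SD, n = 6 arrays), against 6.48 for the median gene. SDC1 at 9.03 ± 0.22, XBP1 at 8.64 ± 0.11 and CD79A at 8.33 ± 0.1 exceeded the upper quartile, 7.66. Of 19 plasma cell genes 4 lay above that quartile and 11 below the median gene. Many genes of the red cell lineage were high, with GATA1 at 9.57 ± 0.19, KLF1 at 9.63 ± 0.11 and the embryonic globin genes HBE1 and HBZ at 14.04 ± 0.27 and 13.01 ± 0.04. Of 36 erythroid regulators and red cell genes 22 lay above the upper quartile and 8 below the median gene. Of 11 epithelial genes 6 lay above and 3 below. The arrays therefore carry the label of a myeloma line, while most of the listed plasma cell genes lay below the median gene. They are called by their label below.

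Few genes passed the test in RPMI8226, and most of those that did had less signal with the sponge. Of 19775 genes, 3 rose (0.0152%) and 40 fell (0.202%; 0.217% in either direction) at an adjusted p under 0.05, which is what called, rose and fell mean throughout (limma's moderated test on all 12 arrays with Benjamini-Hochberg adjustment over 54613 probe sets, two-sided). Among probe sets 13 rose (0.0238%) and 94 fell (0.172%). The count of falls depended on the arrays used: the 6 RPMI8226 arrays alone gave 3 genes higher and 2 lower, leaving out 1 RPMI8226 array gave 9 to 12 lower, and leaving out MMS1 sponge replicate 1 gave 26 higher and 248 lower. The genes that rose were the adult globin genes HBB and HBD and the germ cell gene TEX19. With each gene read by its brightest probe set, the falls ran from 0.49 (HBE1) to 1.21 (FILNC1) on the log2 scale. Dimmer probe sets could differ. KYNU was not called on its brightest probe set (-0.35, adjusted p = 0.446). Dimmer KYNU probe sets gave -1.47 and -1.02 (adjusted p = 0.0234 and 0.0331), and the dimmest -0.17. At an unadjusted p under 0.05, 901 genes were higher (4.56%) and 1928 lower (9.75%). A log2 change of 1 or more in size was seen for 10 genes, against 309 in MMS1, and 7 of the 10 were called. The other 3 were SCGB1D1, ARHGEF17 and PDCD6P1. ARHGEF17 stood at 6.01, 6.62 and 7.16 in the controls and at 8.15, 8.67 and 8.72 with the sponge (adjusted p = 0.0875), and PDCD6P1 had 1 control array at 4.06 beside 9.79 and 9.97. With 3 arrays against 3, an exact permutation test of a single gene could not go below p = 0.1, so the test rests on the spread shared over genes and arrays.

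**Figure D1:**
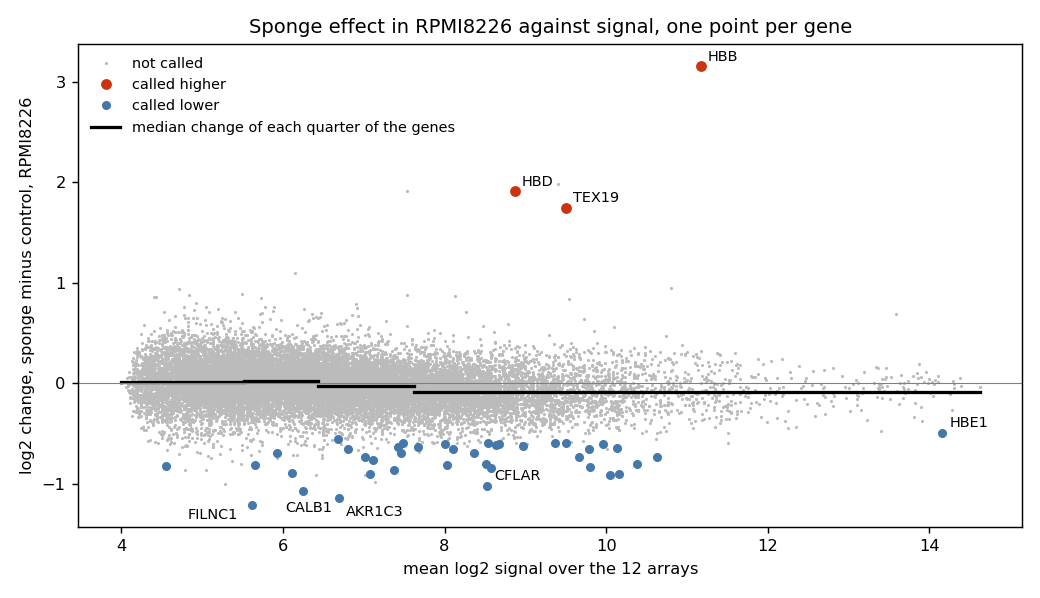
Log2 change in RPMI8226 (sponge minus control, vertical axis) against the mean log2 signal over all 12 arrays (horizontal axis), 1 point per gene; red and blue points are called genes and black bars give the median change in each of 4 bins of genes by signal. HBB, HBD and TEX19 are the red points, and the median moves from 0.014 in the dimmest bin to -0.084 in the brightest.

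The cloud of genes that did not pass leaned downward among bright genes. In 3389 genes (17.1%) all 3 sponge arrays lay below all 3 controls, and in 1540 (7.79%) all lay above. With the genes cut into 4 bins of equal size by signal, these numbers in the brightest bin were 1896 of 4944 (38.3%) and 465 (9.41%). In the dimmest bin 268 (5.42%) lay below and 317 (6.41%) above. This lean depended on the scaling. As deposited, 68.8% of the genes whose arrays did not overlap were lower; after quantile normalization, which gives every array the same distribution, 50.8% were, with 2391 higher and 2471 lower. The median over all genes moved from -0.02 to 0.02. The 28S signal was higher on the same sponge arrays, and its part in the lean was not tested. Counts of gene groups whose arrays did not overlap are therefore given on both scales below, to be read against the shares of all genes (17.1% lower and 7.79% higher as deposited, 12.5% and 12.1% after quantile normalization) and of the brightest bin (38.3% and 9.41%, then 25.1% and 20.5%).

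HBB and HBD, genes of the beta and delta globin chains used after birth, had the smallest p-values of the comparison. Hemoglobin chains are encoded in a cluster on chromosome 11, where HBE1 is used in the embryo, HBG1 and HBG2 in the fetus and HBD and HBB after birth, and in an alpha cluster on chromosome 16 with HBZ, HBM, HBA1, HBA2 and HBQ1. HBB stood at 10.60, 10.52 and 10.51 on the control arrays and at 13.67, 13.76 and 13.70 with the sponge, a change of 3.16 (SE 0.1, 8.95-fold, adjusted p = 2.84e-09). HBD stood at 8.82, 8.75 and 8.77 and at 10.71, 10.70 and 10.65, a change of 1.91 (SE 0.0915, 3.76-fold, adjusted p = 3.34e-07). Within each group the arrays of both genes lay close together, and the groups were far apart. Of 4 HBB probe sets, 3 rose, by 3.06 to 3.25, and 1 gave 0.05. The 3 are of the kind the array maker marks as able to bind several transcripts, and HBB and HBD are close copies, so how much of either signal came from the other gene was not tested.

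The remaining globin genes did not rise. HBE1 fell from 14.30, 14.26 and 14.28 to 13.80 on each of the 3 sponge arrays (change -0.49, adjusted p = 0.046). All sponge arrays lay below all controls, but leaving out any array other than MMS1 sponge replicate 1 ended the call (adjusted p up to 0.163), and its second, dim probe set gave 0.15. HBZ gave -0.01, HBM gave -0.03 and HBQ1 gave 0.08, with overlapping arrays. HBA1, HBA2, HBG1 and HBG2 had no probe set of their own and were not analysed here. The erythroid factors GATA1 and KLF1 act on these clusters through GATA and CACCC motifs, and the NF-E2 factor on a distant control region. The promoter of HBB was not among the sequences used here, and what raised HBD and HBB was not tested. The 250 bases before the start of HBD (chr11:5234484-5234733, minus strand, GRCh38.p14, RefSeq) are shown with motif matches in capitals:
HBD promoter: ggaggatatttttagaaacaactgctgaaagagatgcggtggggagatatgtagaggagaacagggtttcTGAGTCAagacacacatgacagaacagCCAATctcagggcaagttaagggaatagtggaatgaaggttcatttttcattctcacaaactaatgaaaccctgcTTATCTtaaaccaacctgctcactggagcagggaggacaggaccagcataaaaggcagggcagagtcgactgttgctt
Both strands were searched. The NF-E2 core TGAGTCA lies at bases -180 to -174 from the start, CCAAT at -153 to -149, and the GATA motif AGATAA at -78 to -73, read on the opposite strand as TTATCT; the 3 do not overlap. Of 35097 promoter windows of this length, 4.2% hold the NF-E2 core, 32.0% hold CCAAT and 9.17% hold AGATAA. The CACCC box CCACACCC, in 2.97% of windows, was not in this one. A match is a run of letters and no evidence of binding.

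**Figure D2:**
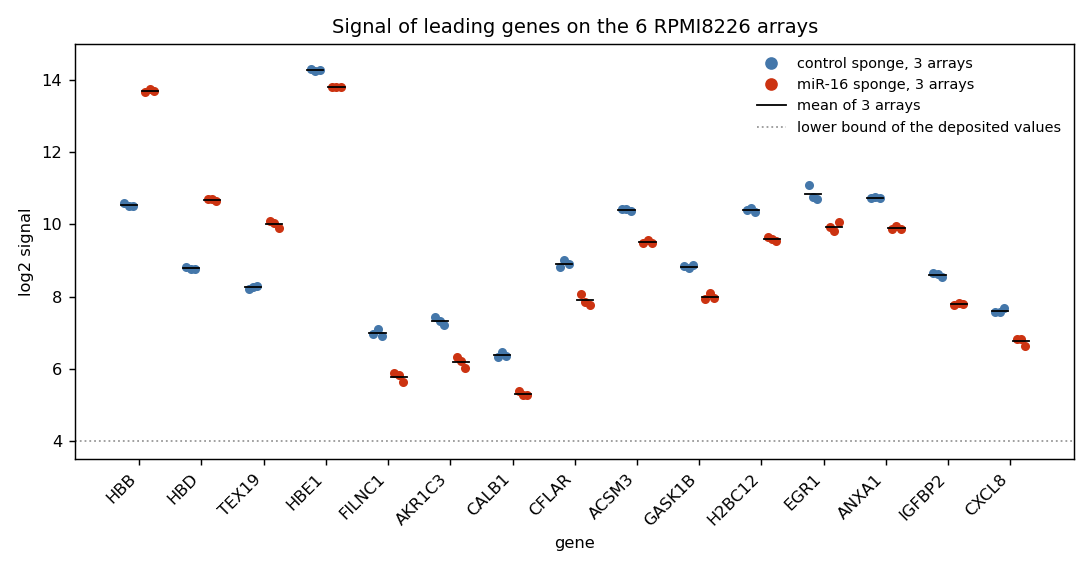
Log2 signal (vertical axis) of 15 genes on the 6 RPMI8226 arrays: blue points are the 3 control arrays, red points the 3 miR-16 sponge arrays, and black lines the group means. HBB, HBD and TEX19 are higher on every sponge array, and the other 12 genes are lower on every sponge array.

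Other genes of red cells did not pass. Of 36 measured erythroid regulators and red cell genes, 0 rose and 0 fell, 5 lay higher and 12 lower with no overlap (8 and 5 after quantile normalization), and the median change was -0.07 against -0.02 for all genes. Of the 20 in the brightest bin, 9 lay lower (38.3% of all genes there did) and 3 higher. LMO2, a bridging protein of the erythroid transcription complex, stood at 9.65, 9.74 and 9.62 against 9.13, 9.12 and 9.02 (change -0.58, adjusted p = 0.0616). NFE2, a subunit of NF-E2, gave -0.53 (adjusted p = 0.0661), GATA1 gave -0.33 (adjusted p = 0.161) and MYB, a factor of blood progenitors, gave -0.36 (adjusted p = 0.175). In each of the 4 the groups did not overlap. Without MMS1 sponge replicate 1 LMO2 and NFE2 were called (adjusted p = 0.0148 and 0.0276). Neither was called when any RPMI8226 array was left out. Of 13 megakaryocyte genes, 0 passed, and 1 lay lower and 0 higher on both scales. Their summed signal was 10.75 to 10.84 in the controls and 10.62 to 10.68 with the sponge, and NFE2 is on both lists. Of 16 iron genes 0 passed, with 3 lower and 0 higher (1 and 4 after quantile normalization); TFRC, the transferrin receptor, gave 0.15.

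TEX19, a gene of germ cells and placenta, stood at 8.22, 8.25 and 8.30 in the controls and at 10.09, 10.03 and 9.90 with the sponge. The change was 1.75 (SE 0.0944, 3.36-fold, adjusted p = 1.18e-06), from a single probe set. In MMS1 the same probe set gave -4.13, and the effects differed between the lines by 5.88 (adjusted p = 4.88e-11).

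The next 12 genes by order of p whose sponge arrays all lay above the controls did not pass. DNAJB5, a heat shock protein of the DNAJ family, gave 0.69 (adjusted p = 0.0544). CDKN1C, which encodes the cell cycle inhibitor p57, gave 0.67 (adjusted p = 0.0625), and of its 5 probe sets 1 was called, at 0.57. ISG15, a ubiquitin-like protein induced by interferon, stood at 8.18, 8.28 and 8.4 against 8.73, 8.80 and 8.85 (adjusted p = 0.0713). IRF7, a regulator of interferon genes, gave 0.66 (adjusted p = 0.0717). AGO4, an Argonaute gene of the microRNA pathway, stood at 7.78, 7.83 and 7.86 against 8.57, 8.30 and 8.31, a change of 0.57 (adjusted p = 0.0824). SCGB1D1 gave 1.10 (adjusted p = 0.0661), PCP4 gave 0.88, and PDE6H gave 0.86 from controls that were all at the lower bound. ARHGAP30 gave 0.72, LOXL4 0.63, PURG 0.53 and ARHGEF1 0.50. When MMS1 sponge replicate 1, the array that stood apart, was left out of the estimate of the spread, 11 of the 12, all but ARHGAP30, were called (adjusted p from 0.0128 for SCGB1D1 to 0.0476 for PCP4). Leaving out any RPMI8226 array, or using the RPMI8226 arrays alone, called no gene higher except HBB, HBD and TEX19.

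Among the 40 genes that fell, the 7 that kept their call without any 1 of the 12 arrays were FILNC1, AKR1C3, CALB1, CFLAR, ACSM3, GASK1B and H2BC12. FILNC1, a long noncoding RNA, stood at 6.97, 7.10 and 6.90 against 5.89, 5.83 and 5.62 (change -1.21, adjusted p = 0.00238). AKR1C3, an aldo-keto reductase of steroid and prostaglandin metabolism, stood at 7.42, 7.33 and 7.20 against 6.31, 6.20 and 6.01 (change -1.14, adjusted p = 0.00136). CALB1, the calcium-binding protein calbindin, stood at 6.31, 6.46 and 6.34 against 5.37, 5.27 and 5.26 (change -1.07, adjusted p = 0.00238). In all 3 the groups were about a log2 unit apart and did not overlap. ACSM3, an acyl-CoA synthetase of mitochondria, fell on both probe sets (changes -0.90 and -0.70). GASK1B, a kinase of the Golgi, fell by 0.84 (adjusted p = 0.00319), while its second probe set, near the lower bound, gave 0.07.

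CFLAR encodes cFLIP, which blocks caspase-8 at death receptors and has many splice forms. Its brightest probe set stood at 8.81, 9.01 and 8.91 against 8.07, 7.84 and 7.76 (change -1.02, SE 0.105, adjusted p = 0.0015). Of its 14 probe sets 3 fell, with changes from -1.02 to -0.88, and 11 did not pass, with changes from -0.45 to 0.27. The mean over all of them gave -0.29 (adjusted p = 0.122). The fall was thus seen by part of the probe sets of this gene.

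H2BC12, a histone H2B gene, fell by 0.80 (adjusted p = 0.00581), and 3 more H2B genes fell with it: H2BC9 (change -0.63), H2BC6 (-0.61) and H2BC12L (-0.59; adjusted p = 0.033, 0.0318 and 0.0305). H2B genes are near-identical copies, so one transcript could feed several of these probe sets. H2BC9, H2BC6 and H2BC12L lost their calls without any RPMI8226 array and without any MMS1 control. H2B genes were not a list of their own and were noticed after their values had been seen. The H2B genes that did not fall were not counted, so these calls say nothing about the family as a whole. Of all genes 0.202% fell.

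Of the 15 falls of largest size, 5 more kept their call in 5 to 10 of the 12 fits that left out an array. EGR1, an immediate early transcription factor induced by growth signals, stood at 11.08, 10.75 and 10.71 against 9.92, 9.81 and 10.07 (change -0.91, adjusted p = 0.0135), and lost its call without RPMI8226 control replicate 1 or sponge replicate 1 or 2 (adjusted p up to 0.0849). Its other 2 probe sets gave -0.56 and -0.12. CXCL8, the chemokine interleukin 8, stood at 7.58, 7.57 and 7.68 against 6.81, 6.82 and 6.63 (change -0.86, adjusted p = 0.0331) and lost its call without any RPMI8226 array or MMS1 control replicate 1 (up to 0.159). ANXA1, annexin A1, a phospholipid-binding protein of inflammation, stood at 10.72, 10.76 and 10.74 against 9.88, 9.95 and 9.88 (change -0.83, adjusted p = 0.0112), and both of its probe sets fell. It lost its call without any RPMI8226 control or without sponge replicate 1 or 3 (up to 0.0695). IGFBP2, which binds insulin-like growth factors, stood at 8.64, 8.63 and 8.55 against 7.77, 7.83 and 7.80 (change -0.81, adjusted p = 0.00736), and missed the threshold without control replicate 1 or 2 (up to 0.0535). PLCL1, a phospholipase C-like protein, fell by 0.89 (adjusted p = 0.00874), and gave up to 0.0695 without control replicate 2 or 3 or sponge replicate 2. For each of these 5 genes the 2 groups of arrays did not overlap.

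The other named falls rested on more of the arrays. They were CAVIN2, a caveola protein (change -0.90), DELEC1 (-0.82), GAS2, linked to growth arrest (-0.81), and RABGGTB, a subunit of the enzyme that prenylates Rab proteins (-0.80). On 2 of the 3 sponge arrays DELEC1 was at the lower bound. Metabolic genes among the calls were FASN (fatty acid synthase, -0.59), SQLE (squalene epoxidase of cholesterol synthesis, -0.60, and on 2 of its 4 probe sets) and NDRG1 (a gene induced by hypoxia, -0.64). The translation initiation factor EIF4B fell by 0.73 on its main probe set, and of its 3 probe sets 2 were called. Also called were STAT5A, which carries cytokine signals (-0.60), the sialyltransferase ST6GAL1 (-0.62), the splicing factor SRSF7 (-0.65) and the telomere protein TERF2IP (-0.59). All of these except RABGGTB, SQLE, TERF2IP, ST6GAL1, FASN and DELEC1 kept their call without any 1 MMS1 sponge array, and each lost it without any RPMI8226 control or any MMS1 control (adjusted p up to 0.147 for CAVIN2 and 0.168 for DELEC1). FASN, SQLE, SRSF7 and ST6GAL1 also lost their call when the probe sets of each gene were averaged. Over all alternatives run, the change was as small as -0.26 for FASN and -0.25 for SRSF7. Of the 40 genes, 26 kept their call in no more than 3 of the 12 fits that left out an array. With the 6 RPMI8226 arrays alone only FILNC1 and CALB1 still fell, and HBB, HBD and TEX19 still rose. Of the 40, 16 had 1 probe set; of the 24 with several, 7 fell on at least 2, and 0 had any probe set that rose.

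The sponge effect in the 2 lines was compared gene by gene with the interaction term of the same fit. Of the 3 genes that rose, HBB and HBD rose in MMS1 too, by 2.91 and 1.39, and TEX19 fell there. Of the 40 that fell, 11 were among the 1597 genes called lower in MMS1 (8.08% of all genes), 9 were among the 858 called higher there (4.34%), and 20 were not called. The effect differed between lines for 21 of the 40, where 5.9% of all genes differed (2.63% with the higher and 3.27% with the lower effect in RPMI8226), and for all 9 of opposite call. The difference contains the RPMI8226 effect by which the 40 were chosen. A share above that of all genes follows in part from this choice and is no result about these genes. FILNC1 (-1.69 in MMS1), CFLAR (-0.56), GASK1B (-0.83) and NDRG1 (-0.50) fell in both lines with no called difference (adjusted p = 0.188, 0.107, 0.977 and 0.664). ACSM3 fell in both, and by 1.68 less in RPMI8226 than its -2.58 in MMS1 (adjusted p = 5.4e-06). The genes of opposite call included ANXA1 (3.85 in MMS1), CALB1 (3.64), IGFBP2 (2.60), CXCL8 (2.24), GAS2 (1.30) and AKR1C3 (0.62). Their differences ran from -1.76 for AKR1C3 to -4.71 for CALB1 (adjusted p = 3.57e-05 and 3.33e-09).

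**Figure D3:**
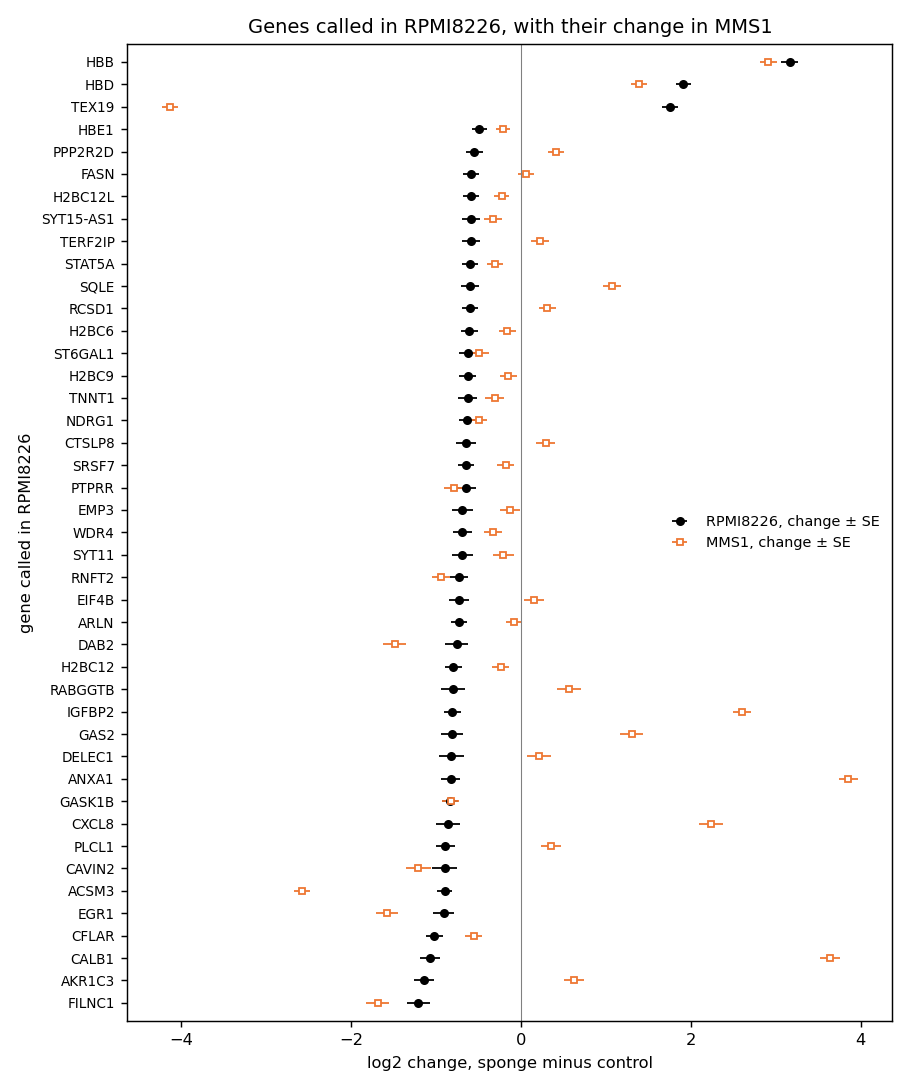
Log2 change with the miR-16 sponge (horizontal axis) of the 43 genes called in RPMI8226 (black circles, ± SE) with the change of the same gene in MMS1 (open orange squares, ± SE). HBB and HBD lie to the right in both lines, TEX19 lies on opposite sides, and ANXA1, CALB1, IGFBP2 and CXCL8 are lower in RPMI8226 and higher in MMS1.

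Of the 10 genes with the largest called differences between lines, 5 in each direction, TEX19, CALB1 and ANXA1 were called in RPMI8226 and are described above. The other 7 were not called there. CD3D, part of the CD3 complex of T cells, gave -0.10 in RPMI8226 and 5.64 in MMS1. KCNC2, a potassium channel, gave 0.34 and 5.77, and SOSTDC1, a secreted BMP antagonist, gave -0.71 and 4.53. MEG3, an imprinted noncoding RNA, gave -0.09 and -4.57, EXOC6B gave -0.39 and -4.82, MFNG gave -0.05 and -3.84, and RAP1A gave 0.64 and -2.89.

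Among published targets of miR-16, the genes a sponge would be thought to raise, no call was made in either direction. Of 34 measured, 0 rose and 0 fell, where 0.0152% and 0.202% of all genes did. At such shares a list of this size would hardly hold a call, so these counts alone say little about the targets. On simulated data, with changes placed in probe sets of any signal, the test called 14.9% of log2 changes of 0.5 and 82.1% of changes of 1. It also called 9 unchanged probe sets of 54613. The rates for genes as bright as these targets were not simulated, and small rises could be missed. At an unadjusted p under 0.05, 0 were higher and 12 lower, against 4.56% and 9.75% of all genes (1 and 9 targets after quantile normalization). The sponge arrays lay all below the controls for 16 of the 34 and all above for 0, against 17.1% and 7.79% of all genes, and the median change was -0.12. Estimates were below 0 for 24 of the 34, against 53.5% of all genes. The targets were bright, with 19 of 34 in the brightest bin of genes. There 12 of 19 lay lower, beside 38.3% of all genes of that bin. After quantile normalization 14 of the 34 lay lower and 4 higher.

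BCL2, an inhibitor of cell death, stood at 6.75, 6.71 and 6.59 in the controls and at 6.82, 6.58 and 6.78 with the sponge (change 0.04, SE 0.1, adjusted p = 0.902). Its 4 probe sets gave 0.04 to 0.12. The groups overlapped, as they did for the cyclins CCND1 (-0.02), CCND3 (0.03) and CCNE1 (0.00), for the survival factor MCL1 (-0.11) and for the vessel growth factor VEGFA (0.14). The cyclin CCND2 stood at 10.29, 10.43 and 10.41 against 10.15, 10.17 and 10.08 (change -0.25, adjusted p = 0.361). Its partner kinase CDK6 gave -0.22 (adjusted p = 0.361) and the phosphatase CDC25A, which frees cyclin-dependent kinases, gave -0.34 (adjusted p = 0.227). The members with the smallest p were PPP2R5C, a regulatory subunit of protein phosphatase 2A (-0.52, adjusted p = 0.0935), CDC27, a subunit of the anaphase promoting complex (-0.45, 0.103), the repair enzyme UNG (-0.43, 0.112) and the kinase PIM1 (-0.38, 0.133). In each of these 7 all sponge arrays lay below all controls. Among probe sets with a mean of 6 or more 5 targets were called lower, with an intensity trend in the variance 6 were, and without MMS1 sponge replicate 1 PPP2R5C, CDC27 and UNG were (adjusted p = 0.0264, 0.0478 and 0.0463). In none of these fits was a target called higher, and leaving out any RPMI8226 array gave no called target.

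**Figure D4:**
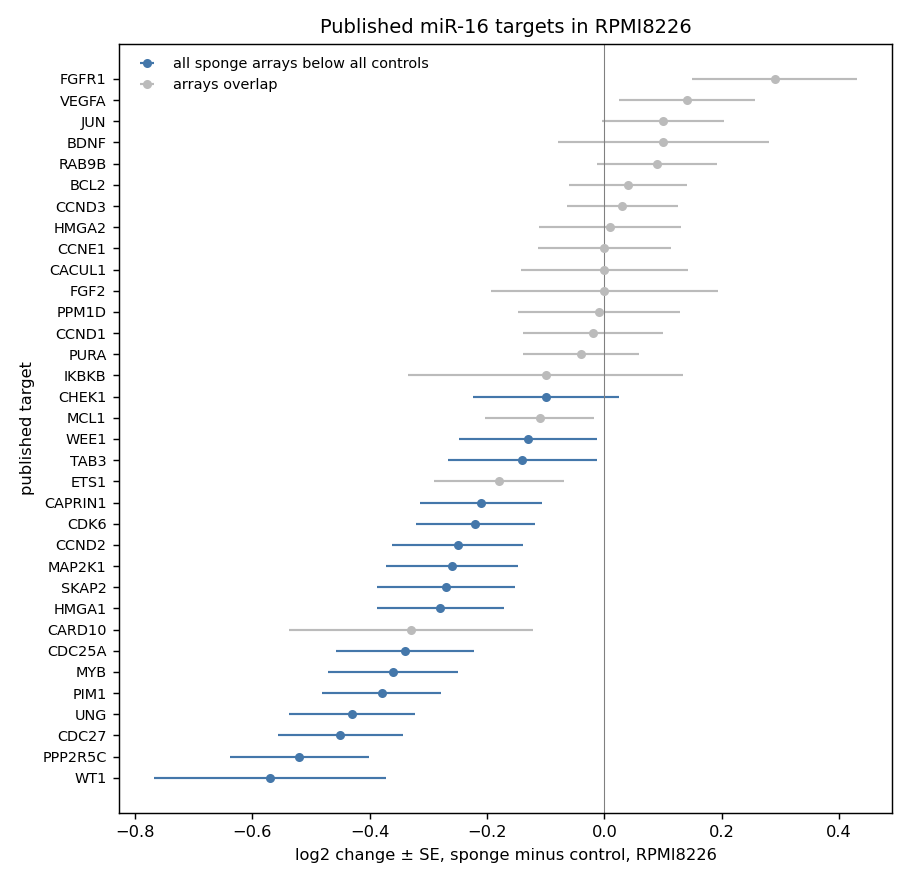
Log2 change in RPMI8226 (sponge minus control, ± SE, horizontal axis) of the 34 measured published targets of miR-16; blue marks the 16 genes whose 3 sponge arrays all lay below the 3 controls and grey the genes whose arrays overlapped. BCL2, CCND1, CCND3 and CCNE1 sit near 0, and the changes run from -0.57 to 0.29.

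The host genes of miR-15 and miR-16 were read as well. DLEU2 gave -0.27 (adjusted p = 0.344), SMC4 gave -0.23 (adjusted p = 0.434) and DLEU1, which lies beside DLEU2, gave -0.15. Of 13 genes of microRNA processing, 0 passed; 1, AGO4, lay higher and 5 lower without overlap (1 and 2 after quantile normalization). The Argonaute genes AGO2 and AGO1 gave -0.32 and -0.19, and the export factor XPO5 gave -0.16.

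Of 21 measured ribosome biogenesis genes, 0 were called, 17 lay below the controls (81.0%) and 0 above, and the median was -0.30. After quantile normalization 12 lay lower (57.1%) and 1 higher, with a median of -0.22. Of the 14 in the brightest bin 11 lay lower as deposited (78.6%, against 38.3% of all genes there). MYC, the transcription factor that drives ribosome production, stood at 11.32, 11.36 and 11.43 against 10.87, 10.93 and 10.92 (change -0.47, adjusted p = 0.0643). The nucleolar protein NPM1 stood at 13.39, 13.46 and 13.39 against 13.03, 13.08 and 13.03 (-0.37, adjusted p = 0.114). RRP9, which processes ribosomal RNA, gave -0.74 and NOP16 gave -0.41. For MYC and NPM1 each group was tight and the groups lay apart by several times its width. With an intensity trend in the variance, 6 of the 21 were called lower. Without MMS1 sponge replicate 1, 3 were, among them MYC and NPM1 (adjusted p = 0.0291 and 0.0497). Leaving out any RPMI8226 array gave no call in this list.

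Chaperones, mitosis genes and DNA replication genes were counted in the same way. Of 17 heat shock chaperones, 0 were called and 11 lay lower (10 after quantile normalization), with 0 higher on either scale and a median of -0.20. In the brightest bin 10 of 14 lay lower (71.4%, against 38.3% of all genes there). HSPA4 stood at 9.85, 9.96 and 9.96 against 9.31, 9.41 and 9.34 (-0.57, adjusted p = 0.0661), HSPE1, the mitochondrial co-chaperonin, gave -0.47, DNAJB6 gave -0.44 and DNAJA1 gave -0.33. Of 30 mitosis genes, 0 were called, 19 lay lower and 1 higher (14 and 2 after quantile normalization), and the median was -0.19. In the brightest bin 16 of 25 lay lower (64.0%). The spindle protein ASPM stood at 8.33, 8.32 and 8.35 against 7.68, 7.72 and 7.84 (-0.59, adjusted p = 0.0686), the kinetochore gene NUF2 gave -0.42, the checkpoint kinase BUB1 gave -0.32, and the microtubule gene NUSAP1 gave 0.29. Of 33 DNA replication genes, 0 were called, 9 lay lower and 3 higher (5 and 5 after quantile normalization), with a median of -0.04. In the brightest bin 8 of 24 lay lower (33.3%), which is near the share of all genes there; the helicase subunit MCM5 gave -0.41. Without MMS1 sponge replicate 1 HSPA4, HSPE1, ASPM and MCM5 were called (adjusted p = 0.0214, 0.0366, 0.0261 and 0.0442). None of them was called when any RPMI8226 array was left out.

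**Figure D5:**
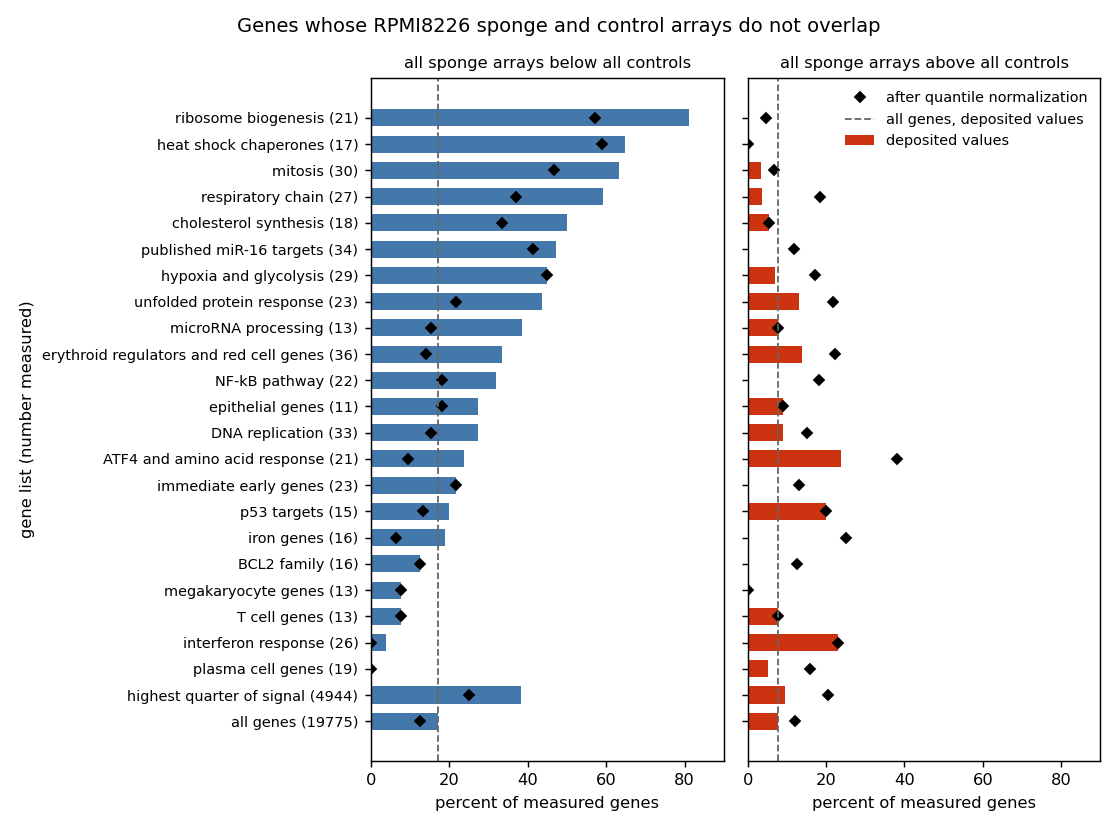
Percent of the measured genes of each list whose 3 sponge arrays all lay below (left) or above (right) the 3 RPMI8226 controls, as deposited (bars) and after quantile normalization (diamonds); the dashed line is the share of all genes as deposited, and lists under 10 genes are left out. As deposited the ribosome biogenesis list has the largest share below, 81.0%, and after quantile normalization the heat shock chaperones, 58.8%, against 38.3% and 25.1% for the brightest bin of all genes.

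Of 27 respiratory chain genes, all in the brightest bin, 0 were called, and 16 lay lower (59.3%, against 38.3% of that bin) and 1 higher. After quantile normalization 10 lay lower and 5 higher (37.0% and 18.5%, against 25.1% and 20.5% of that bin), and the median as deposited was -0.09; the ATP synthase subunit ATP5F1A gave -0.40 and the complex II subunit SDHC gave -0.37. In the list of hypoxia and glycolysis, with 29 measured, NDRG1 fell, from 10.01, 9.91 and 9.92 to 9.29, 9.37 and 9.26 (adjusted p = 0.027). Its arrays did not overlap, and it lost the call without any RPMI8226 array or any MMS1 control (up to 0.124). In that list 13 lay lower and 2 higher (13 and 5 after quantile normalization), and all 15 were among its 26 genes in the brightest bin. Those lower included the hexokinase HK2 (-0.41), the pyruvate dehydrogenase kinase PDK1 (-0.46) and ANKRD37 (-0.47). PDK1 and ANKRD37 were called without MMS1 sponge replicate 1 (adjusted p = 0.0435 and 0.0312), and neither was when any RPMI8226 array was left out. Of 18 cholesterol synthesis genes SQLE fell (adjusted p = 0.0468), and 9 lay lower and 1 higher (6 and 1 after quantile normalization). In the brightest bin 4 of 7 lay lower. MSMO1 gave -0.59 and the regulator SREBF2 gave -0.43. SQLE was higher in MMS1 by 1.07, and the difference between lines was -1.68 (adjusted p = 2.83e-05).

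Lists of stress and signal genes were read as well. Of 23 immediate early genes only EGR1 fell, 5 lay lower and 0 higher (5 and 3 after quantile normalization), and IER2 gave -0.48 and JUNB -0.43 (adjusted p = 0.0661 and 0.121). Of 22 NF-kB pathway genes only CXCL8 fell, with 7 lower and 0 higher (4 and 4 after quantile normalization). In the unfolded protein response 0 of 23 were called, 10 lay lower and 3 higher (5 and 5 after quantile normalization), and the chaperone HSP90B1 gave -0.50. Of 21 genes of the ATF4 and amino acid response 0 were called, 5 lay on either side (2 lower and 8 higher after quantile normalization), the arginine transporter SLC7A1 gave -0.39 and the stress genes SESN2 and TRIB3 gave 0.34 and 0.31. Of 16 BCL2 family genes 0 were called, with 2 lower and 0 higher (2 and 2 after quantile normalization); BCL2L1, which encodes the survival protein BCL-XL, gave -0.47 and BAX, which drives cell death, gave -0.34. Of 15 p53 targets 0 were called, with 3 on either side (2 lower and 3 higher after quantile normalization). Without MMS1 sponge replicate 1 IER2 and SLC7A1 were called (adjusted p = 0.0312 and 0.044). Neither was called when any RPMI8226 array was left out.

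The interferon list was among the few with more genes higher than lower. Of 26 measured genes 0 were called, 6 lay above the controls and 1 below (6 and 0 after quantile normalization), and the median was 0.07. Beside ISG15 and IRF7, IFI35 gave 0.37 and OASL, an antiviral protein, gave 0.32. The effect of the sponge on ISG15 differed between lines by 1.41 (adjusted p = 8.95e-05), since ISG15 fell by 0.91 in MMS1, and that on IFI35 by 0.95 (adjusted p = 0.00226). Without MMS1 sponge replicate 1, ISG15 and IRF7 were called higher in RPMI8226 (adjusted p = 0.032 and 0.0294). Neither was called when any RPMI8226 array was left out.

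Marker lists of other cell types did not pass. Of 19 plasma cell genes 0 were called, with 1 higher and 0 lower (3 and 0 after quantile normalization); their summed signal was 11.72 to 11.74 in the controls and 11.78 to 11.89 with the sponge, JCHAIN was at or near the bound, and SDC1 gave 0.32 (adjusted p = 0.213). Of 8 immunoglobulin genes 0 were called, with 1 higher and 0 lower on both scales, and IGHD gave 0.28. Of 13 T cell genes 0 were called, with 1 on either side on both scales and summed signals of 10.30 to 10.32 and 10.25 to 10.41. Of 11 epithelial genes 0 were called, with 3 lower and 1 higher (2 and 1 after quantile normalization), and with summed signals of 13.38 to 13.42 in the controls and 13.23 to 13.33 with the sponge. The keratin KRT8 gave -0.26 and the surface protein EPCAM -0.30, while the transcription factor ELF3 gave 0.36, each without overlap. The part of these small differences in the results above was not tested. In such bulk samples fewer cells of a type and less RNA per cell cannot be told apart.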

How the data were processed

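RNA of transduced cells was measured on 12 Affymetrix arrays of 54675 probe sets. The authors deposited 1 table of log2 signals for all arrays, with a lower bound of 4 (summary and scaling: not given in the sources used here). Of the probe sets, 62 controls were left out of the tests. Group means were estimated on the 12 arrays together with limma 3.58.1 in R 4.3.3, and p-values were adjusted by Benjamini-Hochberg over 54613 probe sets; a call is an adjusted p under 0.05. The contrasts were sponge minus control in RPMI8226, the same in MMS1, and their difference. A gene is its brightest probe set among those naming 1 gene in the platform annotation (41097 name 1 gene, 1801 several, 11777 none), with current symbols from RefSeq for GRCh38.p14. Genes named are, in each direction, up to 15 called genes of largest change (filled by p), every globin gene, and the 4 members of smallest p of each of 25 lists. Known targets and hosts and the 5 largest differences between lines each way are named too. Other called genes, marker genes, ARHGEF17, PDCD6P1 and KYNU were named after their values were seen. Members and lists were chosen with earlier results of these data known. Alternatives were quantile normalization, the RPMI8226 arrays alone, bright probe sets, array weights, an intensity trend, means over probe sets, a replicate term and leaving out each array. The fit was tested on simulated data.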

Additional observations from a re-analysis of the deposited data

Results flagged for a closer look

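The effect of the sponge differed between RPMI8226 and MMS1, by the interaction term of the limma fit at an adjusted p under 0.05, for 51 of 159 genes that were named by the rules or called in RPMI8226. Over all genes the share was 5.9%. Some of the 159 were chosen for this very difference or for the RPMI8226 effect it contains, so the shares cannot be compared. Values are the RPMI8226 effect minus the MMS1 effect on the log2 scale, over 3 arrays in each group. Globin genes with a difference were HBD at 0.52, HBZ at 1.92 and HBQ1 at 1.07. That of HBD was lost without any array other than MMS1 sponge replicate 1 (adjusted p from 0.0579 to 0.0951). TEX19 differed by 5.88.

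Genes higher in RPMI8226 without passing there gave differences of -1.39 for SCGB1D1, 1.41 for ISG15, 0.86 for IRF7 and 0.75 for PURG. Among the genes that fell, CALB1 differed by -4.71, ANXA1 by -4.68, IGFBP2 by -3.41, CXCL8 by -3.1, GAS2 by -2.11, AKR1C3 by -1.76, RABGGTB by -1.37, PLCL1 by -1.24 and DELEC1 by -1.03. ACSM3 differed by 1.68 and EGR1 by 0.67, the latter just under the threshold. Other called genes gave -1.68 for SQLE, -0.96 for PPP2R2D, -0.94 for CTSLP8, -0.92 for RCSD1, -0.88 for EIF4B, -0.81 for TERF2IP, -0.66 for ARLN, -0.65 for FASN, -0.56 for H2BC12 and 0.73 for DAB2.

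List members that did not pass in RPMI8226 also differed. In protein folding and ribosome production the values were -1.16 for HSP90B1, -0.9 for PDIA6, -0.76 for HSPA4, -1.03 for RRP9 and -0.68 for NPM1. In metabolism they were -1.16 for MSMO1, -0.71 for PDK1, -0.6 for ANKRD37, -0.76 for UQCRB and -0.75 for NDUFV2. The stress and signal genes SESN2, JUNB and IFI35 gave -0.81, 0.64 and 0.95, and the epithelial genes KRT8 and EPCAM gave -2.86 and -0.9. Besides TEX19, CALB1 and ANXA1, the genes with the 5 largest differences in each direction were MEG3 at 4.48, EXOC6B at 4.43, MFNG at 3.8, RAP1A at 3.53, CD3D at -5.74, KCNC2 at -5.43 and SOSTDC1 at -5.24. Every group has 3 arrays, and no search for single outlying arrays was made in groups of that size.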

How the results depend on the processing

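HBB, HBD and TEX19 rose under every alternative run, and no called value changed sign. The median over all genes went from -0.02 to 0.02 under quantile normalization, and those of DNA replication (-0.04 to 0.02), iron genes (-0.03 to 0.02), ATF4 genes (-0.01 to 0.05) and p53 targets (-0.01 to 0.05) turned too. Leaving out single RPMI8226 arrays also turned the small medians of the ATF4, p53, plasma cell and immunoglobulin lists. The count of calls in RPMI8226 depended on the setting. Against 3 genes higher and 40 lower, array weights gave 21 and 173, an intensity trend with a robust prior 128 and 666, probe sets with a mean of 6 or more 108 and 570, and means over probe sets 6 and 81. The 6 RPMI8226 arrays alone gave 3 and 2, and quantile normalization gave 4 and 43, with 36 of the 40 shared. Leaving out 1 array gave 3 to 26 higher and 9 to 248 lower, both highest without MMS1 sponge replicate 1, which moved the difference between lines to 612 and 548. Replicate numbers did not pair the arrays: deviations of same-numbered RPMI8226 arrays correlated at -0.07, -0.02 and 0.03. With the number as a replicate block 3 genes rose and 13 fell, all 13 among the 40. The difference between lines, called for 520 genes higher and 647 lower, gave 933 and 1143 among bright probe sets and 912 and 1208 with the trend. Leaving out 1 array gave 353 to 612 and 397 to 684. The cause of these shifts was not tested. No mature microRNA was measured, and signals at the lower bound have no order.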
